A study of Mus musculus with 31 samples.

Results

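The endocannabinoid genes examined here are 7 genes that encode the cannabinoid receptor CB1 and the enzymes that make and break down its lipid ligands. They were taken by name: the receptor gene Cnr1, the synthesis genes Dagla, Daglb and Napepld, and the hydrolysis genes Mgll, Abhd6 and Faah, 7 of the 54532 genes in the deposited table. All 7 were matched by Ensembl identifier and all 7 passed the filter on low counts. Total RNA of the hypothalamus, the part of the forebrain that controls feeding and body weight, was sequenced in 31 libraries from C57BL/6J mice of 4 months, an inbred strain. Throughout gestation and nursing the dams were given control food or a high-fat, high-sugar (obesogenic) food. All pups were moved to chow at weaning on postnatal day 21 and, whichever food the dam had, were switched at 3 months to the obesogenic food for 4 weeks, so no group remained on chow. Groups are named by the food of the dam, with 8 libraries of control females, 7 of obesogenic females, and 8 each of control males and obesogenic males. No label ties a library to a litter, so a p-value reflects only how these libraries differ among themselves, which may be partly technical or shared by littermates.

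CB1 is a receptor coupled to inhibitory G proteins that sits mainly on nerve terminals and lowers transmitter release. Its ligands, 2-arachidonoylglycerol and anandamide, are made from membrane lipids on demand and act backwards across the synapse, and in the hypothalamus CB1 signalling is known to promote food intake. Dagla and Daglb encode the diacylglycerol lipases alpha and beta, which make 2-arachidonoylglycerol, and Mgll, encoding monoacylglycerol lipase, and Abhd6, encoding a membrane serine hydrolase, break it down. Napepld encodes a phospholipase D that releases anandamide and related N-acylethanolamines, and Faah encodes the hydrolase that degrades them.

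The genes lie on 5 chromosomes of the mouse assembly GRCm38. Cnr1 (ENSMUSG00000044288) spans chr4:33924593-33948831 on the plus strand and Faah (ENSMUSG00000034171) chr4:115967145-116017926 on the minus strand. Daglb (ENSMUSG00000039206) spans chr5:143464584-143505942 on the plus strand and Napepld (ENSMUSG00000044968) chr5:21662901-21701396 on the minus strand. Mgll (ENSMUSG00000033174) spans chr6:88724412-88828360 and Abhd6 (ENSMUSG00000025277) chr14:8002902-8056763, both on the plus strand, and Dagla (ENSMUSG00000035735) spans chr19:10245265-10304877 on the minus strand. Cnr1, Dagla, Abhd6 and Faah overlapped no other annotated gene. Mgll overlapped 3 predicted models on its own strand (Gm44005, Gm43999 and Gm44001), whose shared reads the counting may have left out, so its level carries that uncertainty. Daglb overlapped Rac1, and Napepld the predicted model Gm15719, on the other strand only, and the counting used strand.

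Cnr1, Mgll and Napepld formed the pairs whose covariation passed both with all libraries and without those in doubt, as described below, and the 250 bases before their most upstream RefSeq transcription start (GRCm38.p6) are shown for that reason. Each is written from 5′ to 3′ on the strand of the gene, and capitals mark matches to the GC box (GGGCGG) or the E-box (CACGTG), the kinds of motif found in them.
Cnr1, chr4:33924014-33924263: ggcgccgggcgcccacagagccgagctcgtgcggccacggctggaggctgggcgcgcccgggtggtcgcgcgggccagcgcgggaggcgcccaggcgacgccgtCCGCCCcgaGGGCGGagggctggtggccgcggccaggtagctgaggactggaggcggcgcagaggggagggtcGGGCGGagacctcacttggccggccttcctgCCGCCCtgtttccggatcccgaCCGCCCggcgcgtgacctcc
Mgll, chr6:88724162-88724411: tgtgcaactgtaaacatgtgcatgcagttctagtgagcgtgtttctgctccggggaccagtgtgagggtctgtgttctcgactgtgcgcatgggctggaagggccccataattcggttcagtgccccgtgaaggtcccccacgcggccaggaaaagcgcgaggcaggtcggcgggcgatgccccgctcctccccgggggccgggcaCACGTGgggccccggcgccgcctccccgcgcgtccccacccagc
Napepld, chr5:21701623-21701872: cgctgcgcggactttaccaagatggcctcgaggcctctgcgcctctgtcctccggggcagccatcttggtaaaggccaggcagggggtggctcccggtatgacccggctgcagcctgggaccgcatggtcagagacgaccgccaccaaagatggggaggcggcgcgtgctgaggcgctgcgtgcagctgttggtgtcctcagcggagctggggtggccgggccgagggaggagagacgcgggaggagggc
5 motifs were searched on both strands: the TATA box (TATAAA), the CCAAT box (CCAAT), the GC box, the E-box and the cyclic AMP response element (TGACGTCA). The Cnr1 window held 5 GC boxes, the Mgll window held 1 E-box, and the Napepld window held none of the 5. Among the 27025 genes with a window of this length, a GC box occurred in 32.96%, an E-box in 6.04%, a CCAAT box in 34.5%, a TATA box in 12.98% and a cyclic AMP response element in 1.599%. The Cnr1 window was 79.2% G or C, the Napepld window 69.6% and the Mgll window 68.0%, against a median of 52% over all windows. A window was also at hand for Daglb, which matched none of the motifs, for Abhd6, which had 1 CCAAT box, and for Faah, which had 2 GC boxes. The Faah window, unlike the others, overlapped an annotated exon on the same strand. The 3 windows of the pairs shared no motif of the 5.

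Library totals ran from 23118626 to 38547288 read pairs, so 1 pair corresponded to 0.0259 to 0.0433 CPM (pairs relative to the library total), and 18743 genes were tested. 2 libraries, those labelled control female 7 and control male 7, went against their sex label by Xist and Y-linked genes. 5 libraries stood apart by a rule on their median Spearman correlation with the other libraries, at 0.931 to 0.982 against 0.985 to 0.989 for the rest: control females 5 and 8, control males 4 and 6 and obesogenic female 3. Control male 6 and obesogenic female 3 had reads in 18734 and 18513 genes, against 21311 to 22918 in the others. Their library totals lay within the range of the others. Control female 5 lacked most defining genes of the labelled tissue, with a summed level of 15 hypothalamic genes of 145 CPM against 1133 to 2068 CPM in the libraries not in doubt. Pmch, encoding melanin-concentrating hormone, was at 0.027 CPM there against 451 to 1168, and Sim1, Nkx2-1, Agrp, Hmx2 and Hmx3 had 0 reads. Of the 15 genes only Trh, encoding thyrotropin-releasing hormone, lay within the range of the libraries not in doubt, at 139.7 CPM against 52.0 to 192.7, and the others lay below theirs. The sum of 10 olfactory bulb genes in control female 5 was 3029 CPM against 350 to 624.9. The olfactory bulb list also holds Trh, and it shares Slc17a7 with the thalamus and telencephalon lists, so these sums are not independent. Thalamus (810 CPM against 102.3 to 159.0) and telencephalon sums (1529 against 380 to 549) also lay above the range in control female 5. So did GABAergic (3581 against 1187 to 1625) and neuronal sums (7613 against 5071 to 6045). Astrocyte (4307 against 4436 to 8024) and oligodendrocyte sums (3959 against 4999 to 8697) lay below it. Which tissue this library held was not tested. Control male 6 had the highest sums of 8 oligodendrocyte genes (10839 CPM against 4999 to 8697) and of 8 microglial genes (698 against 386 to 566). It also had the highest sum of the 15 hypothalamic genes (3840 against 1133 to 2068), of which Pmch made up 2332 CPM, against 451 to 1168. Nkx2-1, Hcrt, Avp, Agrp and Pomc also lay above their ranges in this library. Sim1 (6.27 CPM, lowest of the others 6.63), Hmx3 (0.319, lowest 1.15) and Lhx6 (1.56, lowest 2.90) lay below theirs, and the remaining genes within. The telencephalon (738 against 380 to 549) and olfactory bulb sums (626.7 against 350 to 624.9) of control male 6 lay above the range. Its neuronal (4963 against 5071 to 6045) and GABAergic sums (1084 against 1187 to 1625) lay below it. These 7 libraries are called in doubt below, and results are given with all 31 and with the other 24, which are 5 females and 5 males of control dams and 6 females and 8 males of obesogenic dams. The replicate numbers only name the libraries. The tissue is a bulk dissection, so fewer cells of a type and less RNA per cell cannot be told apart.

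Per kilobase of merged exon, the receptor gene and the 2-arachidonoylglycerol hydrolases were the highest of the 7, and the beta lipase the lowest. Merged exon counts every annotated exon of a gene, expressed or not, so this order depends on the annotation. On that scale the median over 31 libraries was 14.98 CPM per kb for Cnr1, 13.8 for Abhd6, 12.9 for Mgll, 6.70 for Dagla, 5.12 for Napepld, 4.39 for Faah and 3.18 for Daglb. The order within the upper 3 was not firm: Cnr1 was above Abhd6 in 20 of 31 libraries and Abhd6 above Mgll in 22. Mgll was above Dagla in 31 of 31 libraries. Of the lower 4, Dagla was above Napepld in 30 libraries, Napepld above Faah in 26 and Faah above Daglb in 30. The order differed in CPM, without division by length (2365 bases for Abhd6, 9567 for Daglb). There Napepld was the lowest, with group medians of 18.7 to 22.4 CPM against 29.2 to 31.3 for Daglb. Abhd6, at 30.9 to 33.9, was below Dagla, at 36.4 to 41.3. Between the diacylglycerol lipases, Dagla was the higher per kilobase in 30 of 31 libraries: the ratio of Dagla to Daglb ran from 1.504 to 3.05, with a median of 2.07, over the 24 libraries not in doubt, and was 0.826 in control male 6.

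Cnr1 did not pass in either sex with dam diet, and its sign depended on the libraries in doubt. In control females its level ran from 25.8 to 100.4 CPM with a median of 93.2, in obesogenic females from 78.0 to 98.4 with a median of 89.7, in control males from 56.8 to 112 with a median of 104, and in obesogenic males from 71.3 to 118 with a median of 101.2. The groups overlapped, and the lowest value of each control group came from a library in doubt, control female 5 and control male 6. With dam diet, Cnr1 differed by a log2 fold change of 0.083 ± 0.18 (SE) in females (95% interval -0.28 to 0.45; edgeR adjusted p = 0.911) and 0.050 ± 0.17 in males (interval -0.30 to 0.40; adjusted p = 0.976). Without the libraries in doubt the values were -0.052 ± 0.097 and -0.11 ± 0.091, so the sign turned, and neither passed.

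None of the synthesis genes passed. Dagla ran from 26.3 to 44.0 CPM in control females (median 36.4), from 31.1 to 50.2 in obesogenic females (median 41.3), from 16.8 to 40.3 in control males (median 36.5) and from 29.9 to 45.1 in obesogenic males (median 38.1). 6 of 7 obesogenic females and 7 of 8 obesogenic males were above the mean of the controls of their sex, the groups overlapped, and the lowest value of the control males was control male 6. Without the libraries in doubt, 5 of 6 obesogenic females and 4 of 8 obesogenic males were above that mean. The differences were then 0.13 ± 0.098 in females and 0.015 ± 0.092 in males. Averaged over the sexes, Dagla differed by 0.18 ± 0.092 (interval -0.0090 to 0.36; edgeR adjusted p = 0.501), the lowest adjusted p of the 7 genes in that comparison, and by 0.070 ± 0.067 without the libraries in doubt. Daglb had group medians of 29.2, 31.3, 30.3 and 30.1 CPM in control females, obesogenic females, control males and obesogenic males, and differed with dam diet by 0.065 ± 0.084 in females and -0.0016 ± 0.081 in males. Napepld had group medians of 19.3, 18.7, 20.8 and 22.4 CPM in the same order. Its difference was 0.0033 ± 0.15 in females and 0.14 ± 0.14 in males, where control male 6 stood at 6.75 CPM, and the latter was 0.055 ± 0.095 without the libraries in doubt.

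**Figure D1:**
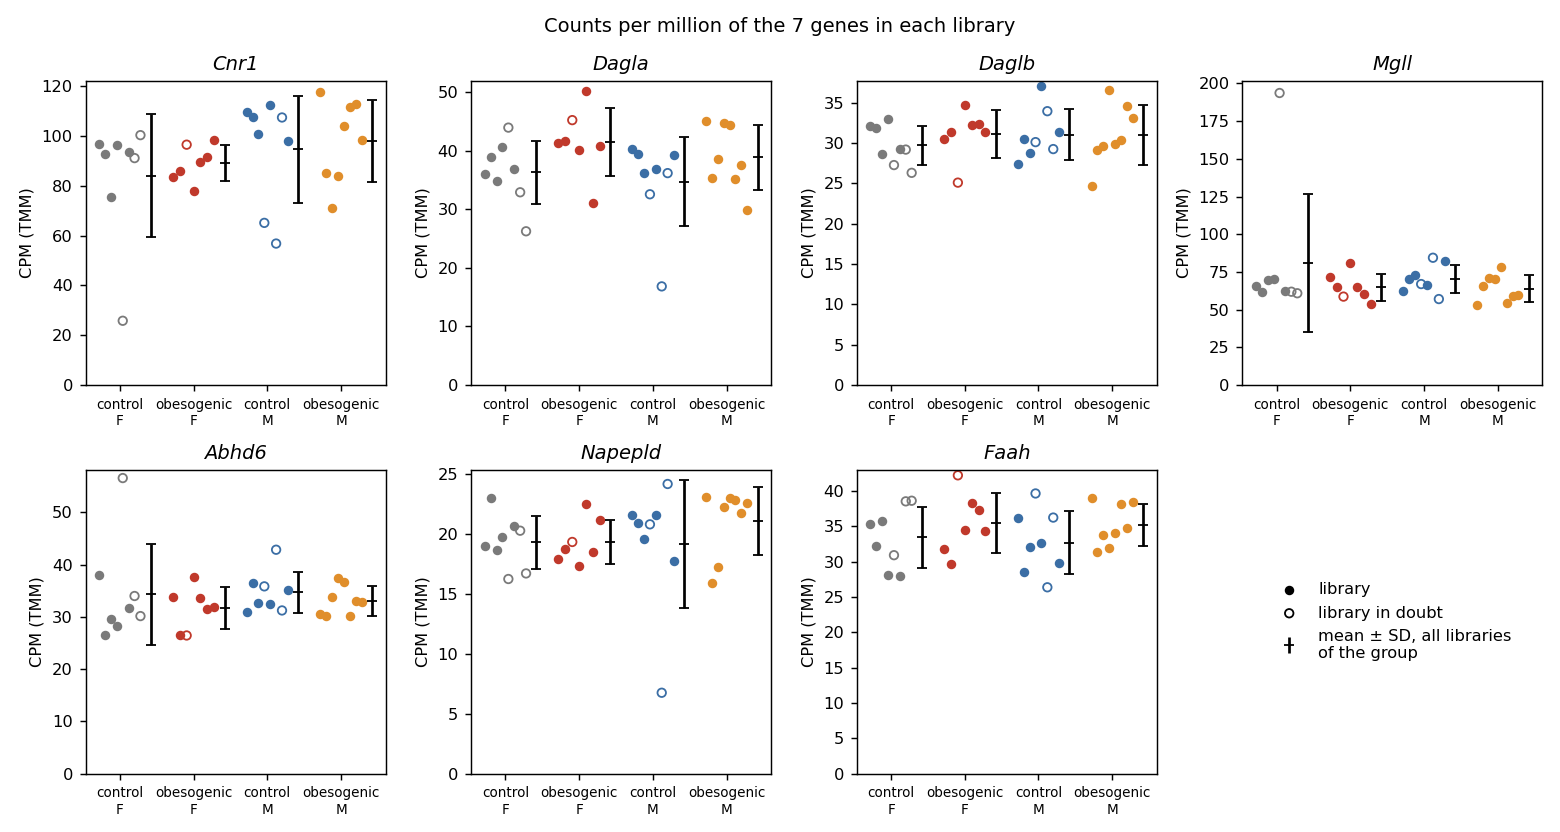
Level of each of the 7 genes in CPM (vertical axis, from 0) in each library, by dam diet and sex of the offspring (F, female, M, male). Filled points are libraries not in doubt, open points those in doubt, and the bar is the mean ± SD over all libraries of a group. The groups overlap for all 7 genes, and the Mgll value of 194 CPM is control female 5.

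The hydrolysis genes held the largest fitted difference, and it rested on 1 library. Mgll ran from 60.9 to 194 CPM in control females with a median of 63.8, from 53.6 to 80.7 in obesogenic females with a median of 64.8, from 57.0 to 84.4 in control males with a median of 68.6, and from 53.3 to 78.1 in obesogenic males with a median of 62.7. The value of 194 CPM was control female 5, the library low in hypothalamic markers, and the other 7 control females lay at or below 70.1 CPM. Mgll differed by -0.31 ± 0.18 with dam diet in females (interval -0.68 to 0.052; edgeR adjusted p = 0.648), and by 0.013 ± 0.093 once control female 5 alone was left out. In males the difference was -0.14 ± 0.17 with all libraries and -0.15 ± 0.090 without those in doubt (edgeR adjusted p = 0.9999).

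Abhd6, like Mgll, was highest in control female 5, at 56.6 CPM against 26.5 to 38.1 in the other control females. Its group medians were 30.9, 31.98, 33.9 and 32.95 CPM in control females, obesogenic females, control males and obesogenic males. The difference with dam diet in females was -0.12 ± 0.12 with all libraries and 0.028 ± 0.090 without control female 5, and in males it was -0.069 ± 0.11. The ratio of Mgll to Abhd6 per kilobase was 0.780 to 1.15 in the 24 libraries not in doubt, with a median of 0.944.

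Faah did not pass, with fitted values above 0 in both sexes. It ran from 27.97 to 38.6 CPM in control females (median 33.8), 29.7 to 42.2 in obesogenic females (median 34.5), 26.4 to 39.7 in control males (median 32.4) and 31.4 to 39.01 in obesogenic males (median 34.4). All 4 groups overlapped, and 6 of 8 obesogenic males were above the mean of the control males. The difference averaged over the sexes was 0.096 ± 0.065 (edgeR adjusted p = 0.587) with all libraries and 0.13 ± 0.059 (edgeR adjusted p = 0.935) with 24. With 24 libraries Faah was the 1 gene of 7 under 0.05 before adjustment in that comparison, a level that 4.89% of all genes reached.

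In no comparison did any of the 7 genes pass the threshold of an adjusted p of 0.05. edgeR's quasi-likelihood test called 0 of 7 with dam diet in females, in males, averaged over the sexes, in the interaction of diet and sex, and between females and males of each dam diet. The background was the same: 0% of all 18743 genes were called in each of these 6 comparisons. For the 2 sex comparisons, that share was taken with the 2 libraries against their sex label kept in. Without those 2, edgeR called 10 of 18581 genes for sex in control offspring and 9 for sex in obesogenic offspring, and 0 of the 7. With only the 2 obesogenic groups fitted, it called 12 of 17526 genes. The groups of the 7 genes overlapped in each comparison of 2 groups, as did those of nearly all genes: they did not overlap for 0.117% of genes for diet in females, 0.016% for diet in males, 0.0107% for sex in control and 0.101% for sex in obesogenic offspring. Before adjustment, 0 of the 7 genes had a p under 0.05 in any of the 6 with all libraries, against 8.12% of all genes for diet in females, 3.45% for diet in males, 10.2% for the average, 3.62% for the interaction, 4.39% for sex in control offspring and 3.63% for sex in obesogenic offspring. Without the libraries in doubt, edgeR again called 0 of the 7 in each comparison, against 0% of all genes for the diet comparisons and the interaction, 0.0583% for sex in control offspring and 0.0795% for sex in obesogenic offspring. DESeq2 called 6, 1 and 5 genes over the whole table for diet in females, in males and averaged, and limma voom called 0, with none of the 7 among them. The median log2 fold change of the 7 genes was 0.065 in females and 0.050 in males, against -0.013 and 0.00038 over all genes tested. The biological coefficient of variation between libraries of a group was 12.04% (Daglb) to 24.3% (Cnr1), against a median of 22.4% over all genes, and 10.2% to 11.7% against 15.4% without the libraries in doubt.

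**Figure D2:**
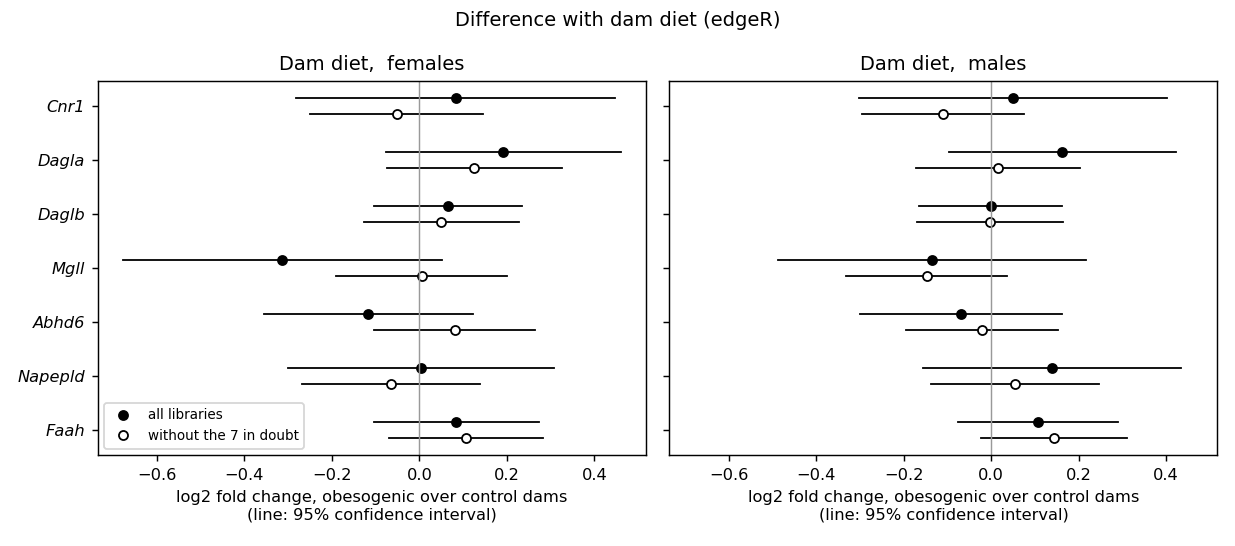
Log2 fold change of each gene between offspring of obesogenic and control dams (horizontal axis; lines are 95% intervals from edgeR), in females on the left and males on the right. Filled points use 31 libraries and open points the 24 not in doubt; every interval includes 0, and Mgll in females moves from -0.31 to 0.0050.

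Between the sexes, Cnr1 was the one gene whose groups separated in part of the data. In the libraries not in doubt, the 5 control females read 76.0 to 97.1 CPM and the 5 control males 98.3 to 112 CPM, so these groups did not overlap, which held for 0.615% of all genes in that comparison. The log2 difference of females minus males was -0.21 ± 0.10 (edgeR adjusted p = 0.9997); before adjustment its p was under 0.05, as for 2.98% of all genes. The separation depended on the control libraries left out. Scaled with all libraries, control females 5, 7 and 8 read 25.8, 91.2 and 100.4 CPM. Control males 4, 6 and 7 read 65.1, 56.8 and 107.5 CPM on that scale. Control female 7 and control male 7 went against their sex label, and exchanging them would not separate the groups. With all 16 control libraries the groups overlapped and the difference was -0.17 ± 0.17 (adjusted p = 0.995). In obesogenic offspring it was -0.14 ± 0.18 with all libraries and -0.16 ± 0.087 without those in doubt, where 1 of 6 females was above the male mean. The diet by sex interaction of Cnr1 was -0.033 ± 0.25 (edgeR adjusted p = 0.9996).

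Some of the 7 genes varied together from library to library within groups. Levels were taken as log2 CPM with the mean of each group removed, and the 21 pairs among the 7 genes were compared with Spearman's rho and Pearson's r, each with a two-sided permutation of libraries within groups and Benjamini and Hochberg's adjustment over the 21 pairs. With 31 libraries 5 of 21 pairs passed by rho, each with Cnr1 or Mgll in it, and 7 passed by r. With the 24 libraries not in doubt 2 pairs passed, Cnr1 with Mgll and Cnr1 with Napepld, and both were among the 5. Relations of this size were common in these data: for the 5 pairs, 0.454% to 10.7% of all genes tested were related to one member as strongly as the other member was, and for the 2 pairs with 24 libraries 4.00% to 8.44%.

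The strongest relation was an opposition of the receptor and monoacylglycerol lipase. Libraries with more Cnr1 had less Mgll (rho = -0.70, permutation p = 6.0e-05, adjusted p = 0.0013; r = -0.86, p = 0.00030, adjusted p = 0.0028; n = 31). The 2 libraries farthest from the Cnr1 median were control female 5 and control male 6, and without them r was -0.58. With 24 libraries rho was -0.67 (permutation p = 0.0019, adjusted p = 0.022) and r was -0.66 (p = 0.0013, adjusted p = 0.020). Within groups, rho was -0.45 in control females (exact permutation p = 0.267, n = 8), -0.67 in control males (exact p = 0.083, n = 8), -0.96 in obesogenic females (exact p = 0.0028, n = 7) and -0.74 in obesogenic males (exact p = 0.046, n = 8), so the sign was the same in all 4. The pair also passed under each of the 11 alternative settings tried, with rho from -0.60 to -0.77 (permutation adjusted p from 0.00042 to 0.037). Obesogenic male 1 had the highest Cnr1 of its group, at 118 CPM, and the lowest Mgll, at 53.3 CPM, while obesogenic female 4 had the lowest Cnr1 of its group, at 78.0 CPM, and the highest Mgll, at 80.7 CPM. The ratio of Mgll to Cnr1 per kilobase therefore ran from 0.576 to 1.31 over the 24 libraries not in doubt, and was 9.52 in control female 5. Of all genes tested, 1.10% were related to Cnr1 as strongly as Mgll was with 31 libraries and 5.06% with 24, and 1.16% and 8.44% were related to Mgll as strongly as Cnr1 was.

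**Figure D3:**
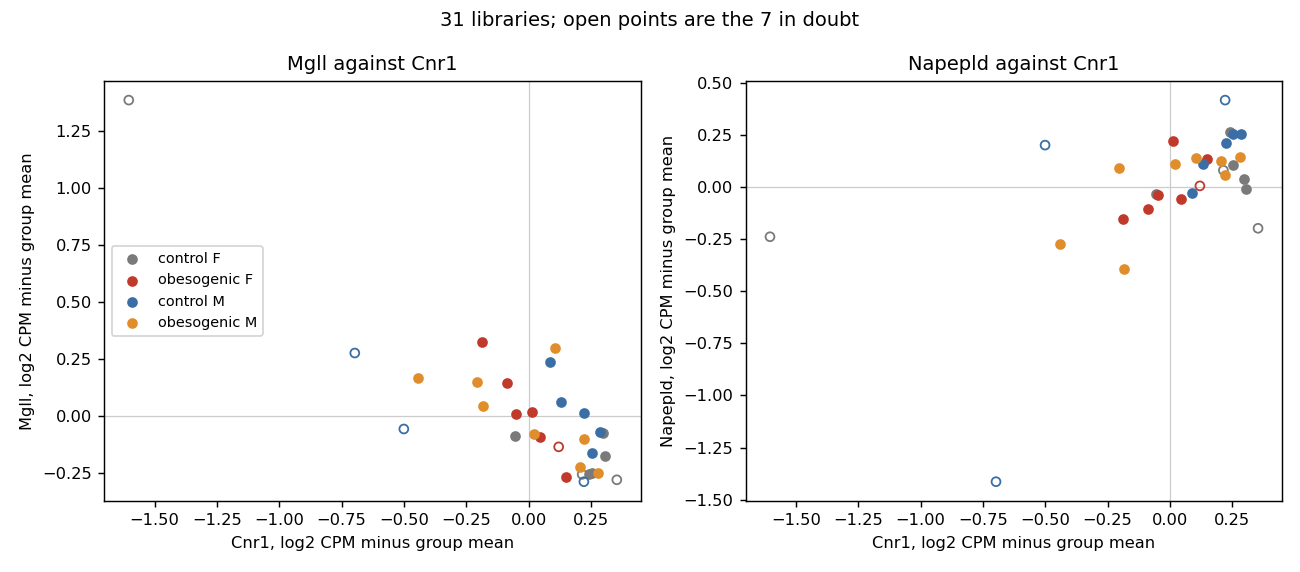
Mgll (left) and Napepld (right) against Cnr1 in 31 libraries, each as log2 CPM minus the mean of its group; colours are the 4 groups by dam diet and sex (F, female, M, male) and open points are the 7 libraries in doubt. Mgll falls as Cnr1 rises (rho = -0.70) and Napepld rises with it (rho = 0.47); control female 5 is the point at the far left.

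Cnr1 and Napepld, the anandamide synthesis gene, rose and fell together (rho = 0.47, permutation p = 0.0027, adjusted p = 0.014; r = 0.52, p = 0.00048, adjusted p = 0.0028; n = 31), and r was 0.40 without the 2 farthest libraries. The relation was closer with 24 libraries, at rho = 0.63 (permutation p = 0.0021, adjusted p = 0.022) and r = 0.67 (p = 0.0019, adjusted p = 0.020). A relation as strong was ordinary among all genes: 10.1% reached it with Cnr1 and 10.7% with Napepld with 31 libraries, and 6.97% and 4.00% with 24. Within groups rho was 0.095 in control females, 0.79 in control males, 0.71 in obesogenic females and 0.64 in obesogenic males (exact permutation p = 0.840, 0.028, 0.088 and 0.096). The pair did not pass without control male 6 (rho = 0.44, permutation adjusted p = 0.052), without the 2 libraries with 2 numbers in the title (0.43, adjusted p = 0.058), with 2 surrogate variables (0.40, adjusted p = 0.091), or without the 5 libraries that went against their sex label or stood apart by Pearson's r (0.47, adjusted p = 0.101). Napepld and Mgll had a negative rho that did not pass in either set (-0.42, permutation p = 0.019, adjusted p = 0.062 with 31 libraries; -0.56, p = 0.0088, adjusted p = 0.055 with 24).

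With all libraries, Mgll and Abhd6, which share 2-arachidonoylglycerol as substrate, varied in the same direction, and Mgll and the anandamide hydrolase gene Faah in opposite ones. Mgll and Abhd6 had a rho of 0.58 (permutation p = 0.00098, adjusted p = 0.010; r = 0.81, p = 0.00014, adjusted p = 0.0028; n = 31), and r was 0.55 without the 2 farthest libraries. With 24 libraries rho was 0.54 (permutation p = 0.011, adjusted p = 0.055) and r was 0.49 (p = 0.016, adjusted p = 0.109), which did not pass. Of all genes, 0.454% were related to Abhd6 and 3.97% to Mgll as strongly with 31 libraries, and 1.08% and 17.8% with 24. Mgll and Faah had a rho of -0.53 (permutation p = 0.0020, adjusted p = 0.014; r = -0.38, p = 0.036, adjusted p = 0.075; n = 31) and of -0.41 (permutation adjusted p = 0.213) with 24, and 6.29% of genes were as strongly related to Mgll and 1.07% to Faah with 31. Cnr1 and Abhd6 had a rho of -0.47 (permutation p = 0.0084, adjusted p = 0.035; r = -0.75, p = 0.0017, adjusted p = 0.0071; n = 31), and 10.02% of genes were as strongly related to Cnr1 and 2.86% to Abhd6. Without control female 5 and control male 6, rho was -0.36 and r was -0.35. Within obesogenic females, which hold neither, rho was -0.64 (exact permutation p = 0.139, n = 7), and within obesogenic males -0.36 (exact permutation p = 0.389, n = 8). With 24 libraries rho was -0.16 (permutation adjusted p = 0.731), so the pair was not called without the libraries in doubt.

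Other pairs of enzymes with a shared product or opposite roles did not pass by rho. The diacylglycerol lipases Dagla and Daglb had a rho of -0.15 with 31 libraries and -0.06 with 24, and Napepld and Faah, which make and degrade the same lipids, had 0.37 (permutation p = 0.043, adjusted p = 0.110) and 0.34. Dagla and Mgll, which make and degrade 2-arachidonoylglycerol, had 0.22 and 0.17. Pearson's r called Dagla with Napepld (0.72), Mgll with Napepld (-0.38) and Abhd6 with Napepld (-0.39) with 31 libraries, in each of which Napepld was lowest in control male 6, and none of these with 24.

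**Figure D4:**
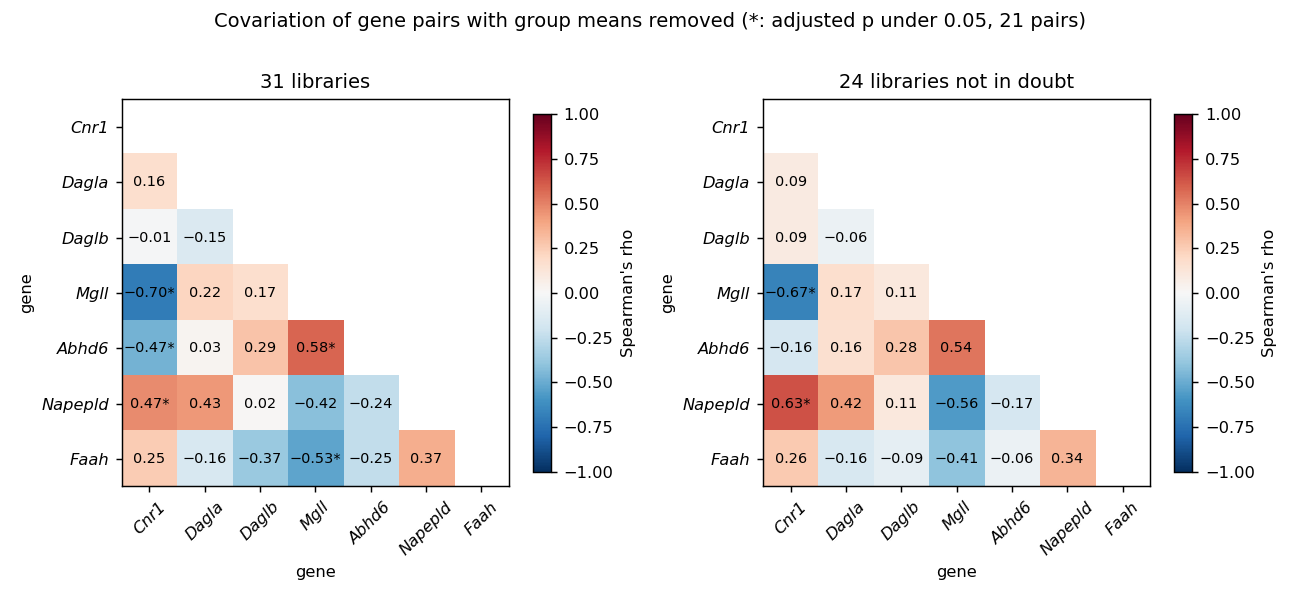
Spearman's rho of each pair of the 7 genes (rows and columns) over 31 libraries on the left and the 24 not in doubt on the right, with group means removed; red is positive, blue negative, and an asterisk marks a permutation p under 0.05 after adjustment over 21 pairs. The 5 marked pairs on the left include both marked on the right, Cnr1 with Mgll (-0.67) and Cnr1 with Napepld (0.63).

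Marker genes of brain cell types moved with the same genes. For 14 marker lists, the mean log2 CPM of the list was related to each of the 7 genes in the same way, 98 relations in each set of libraries, of which 8 passed with 31 libraries and 15 with 24. Each gene of a list had equal weight. The list called hypothalamic glutamatergic neurons was only Slc17a6, Nrn1, Fezf1 and Nr5a1. The list called cholecystokinin interneurons was only Cck, Vip, Htr3a, Slc17a8 and Adarb2. With 24 libraries Mgll rose with the astrocyte list (rho = 0.87 and r = 0.84, or 0.85 and r = 0.82 without the 2 farthest libraries; permutation p adjusted over 98 relations = 0.0010; all 10 markers of the same sign), the microglial list (0.83, adjusted p = 0.0010; 8 of 8) and the oligodendrocyte list (0.74, adjusted p = 0.0027; 7 of 8). It fell as the neuronal list (-0.62, permutation adjusted p = 0.018; 7 of 8) and the list of hypothalamic glutamatergic neurons (-0.74, adjusted p = 0.0027; 4 of 4) rose. Cnr1 had the opposite signs: 0.75 with neurons (adjusted p = 0.0020), 0.71 with glutamatergic neurons (0.0022), -0.67 with astrocytes (0.017) and -0.68 with microglia (0.010), each from the same permutation test. Napepld followed Cnr1, at 0.76 with neurons and 0.76 with glutamatergic neurons (permutation adjusted p = 0.0013 and 0.0026), and fell with the ependymal list (-0.61, adjusted p = 0.018). The list of cholecystokinin interneurons rose with Cnr1 (0.71), fell with Mgll (-0.71) and rose with Napepld (0.67), with permutation adjusted p of 0.0027, 0.0035 and 0.010. With these 24 libraries Cnr1 and Mgll thus had opposite signs with the neuronal, glutamatergic, cholecystokinin interneuron, astrocyte and microglial lists. Cnr1 was not called with the oligodendrocyte list, and neither gene was called with the GABAergic list.

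With all 31 libraries the astrocyte and oligodendrocyte lists were not called with Mgll (0.41, permutation adjusted p = 0.115, and 0.40, adjusted p = 0.144), nor was the neuronal list with Mgll (-0.24, permutation adjusted p = 0.385) or Cnr1 (0.44, adjusted p = 0.072), nor the astrocyte list with Cnr1 (-0.20, adjusted p = 0.467). The list of cholecystokinin interneurons was not called with Cnr1 (0.15, permutation adjusted p = 0.652), Mgll (-0.13, adjusted p = 0.694) or Napepld (0.39, adjusted p = 0.120), and Napepld was not called with the glutamatergic list (0.32, adjusted p = 0.194) or the ependymal list (-0.41, adjusted p = 0.115). Of the 5 cholecystokinin interneuron markers, 3 had the sign of their list with Cnr1, 2 with Mgll and 4 with Napepld. Called in this set were the microglial list with Mgll (0.72), Cnr1 (-0.70) and Abhd6 (0.56) and the glutamatergic list with Mgll (-0.72) and Cnr1 (0.64). Napepld was also called with neurons (0.54), and Dagla with the hypothalamic identity list (-0.53) and the ependymal list (-0.49). No relation was called in either set for the lists of GABAergic neurons, telencephalon, olfactory bulb, thalamus, endothelium and pituitary, for which the strongest rho with 24 libraries was 0.48 (Cnr1), 0.29 (Daglb), 0.48 (Faah), 0.40 (Mgll), 0.43 (Mgll) and -0.31 (Abhd6). Over the libraries not in doubt, the summed level of the 10 astrocyte genes ran from 5223 to 7160 CPM in control females, 5224 to 8024 in control males, 4713 to 7391 among obesogenic females and 4436 to 7298 among obesogenic males, and that of the 8 microglial genes from 445 to 554, 408 to 553, 407 to 540 and 386 to 566. The 8 neuronal genes summed to 5093 to 5659, 5218 to 5816, 5071 to 5661 and 5245 to 6045 CPM in the same order, and 0 markers of these 3 lists had 0 reads in a group. The groups thus overlapped in all 3 lists. The part of these marker levels in the relations among the 7 genes was not tested.

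**Figure D5:**
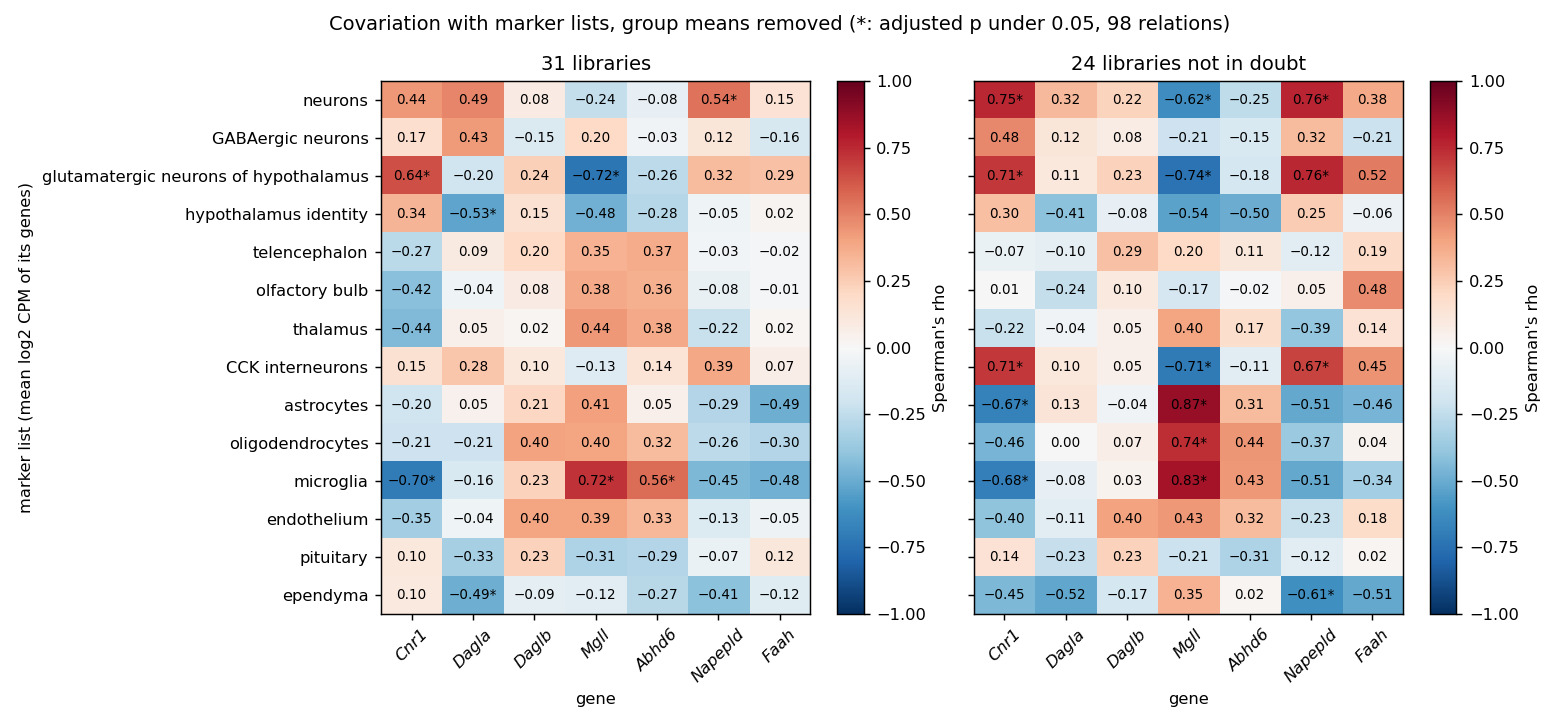
Spearman's rho of each of the 7 genes (columns) with the mean log2 CPM of 14 marker lists (rows), group means removed, over 31 libraries on the left and 24 on the right; an asterisk marks a permutation p under 0.05 after adjustment over 98 relations. In the 24 libraries Mgll is positive with astrocytes (0.87), oligodendrocytes (0.74) and microglia (0.83), and Cnr1 and Napepld are positive with neurons (0.75 and 0.76).

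The genes most alike to each member were taken as those with the highest rho over all genes tested, leaving out unnamed and predicted models, and are given as a description. For Cnr1 they included Peg3 (0.88) and Cacna2d2, a calcium channel subunit (0.87), with 31 libraries, and were Gucy1b1 (0.89), Napg (0.88) and Slc2a13 (0.88) with 24. For Mgll they were Rasl10b (0.86), Csdc2 (0.86) and H3f3a (0.82) with 31 libraries, and Plekhm2 (0.95), Slc25a18, a glutamate carrier of mitochondria (0.95), and Sfxn5 (0.94) with 24. The genes named for Cnr1 and Mgll differed between the sets, and the central 90% of all genes lay between -0.43 and 0.52 with Cnr1 and between -0.50 and 0.43 with Mgll over 31 libraries. The same limits were wider over 24 libraries, -0.57 to 0.61 with Cnr1 and -0.66 to 0.63 with Mgll. For Napepld the 24 libraries gave Epdr1 (0.87), Adcy3 (0.86), an adenylate cyclase, and Exog (0.84), and 31 gave Tmem63c (0.78), Sorcs3 (0.77) and Tmem255a (0.77). For Abhd6 the first was Polb (0.75) with 31 and Olig2, a transcription factor of oligodendrocytes (0.73), with 24. For Dagla it was Mprip (0.87) and Tesk1 (0.85), for Faah Lmo3 (0.71) and Mkx (0.82), and for Daglb Rnaseh2b (0.66) and Prpf31 (0.70), where Prpf31 was among the 3 closest in both sets.

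The wider endocannabinoid system gave no called gene either. Of 32 further genes (other receptors, proteins that bind CB1, its G proteins, phospholipases C beta, other enzymes of N-acylethanolamine synthesis and breakdown, oxygenases and lipid carriers), 29 were tested and Gpr18, Gpr119 and Alox15 fell below the filter on low counts. 0 of 29 passed in any of the 6 comparisons with all libraries, against 0% of all genes. For the sex comparisons, that share too was taken with the libraries against their sex label kept in. With dam diet in females 10 of the 29 were higher and 19 lower, with a median of -0.089 against -0.013 over all genes, and in males 16 were higher and 13 lower, with a median of 0.0037 against 0.00038. Before adjustment, 4 of the 29 were lower in females with a p under 0.05, against 4.75% of all genes, and 0 in males in either direction, against 3.45%. Without the libraries in doubt 2 of the 29 were lower in females at that level, against 3.75% of all genes. Cnr2, encoding the other cannabinoid receptor, was barely detected, with group means of 0.299 to 0.347 CPM.

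By the smallest p in the comparison averaged over the sexes, the genes to name are Gde1, Fabp7, Fabp5 and Gnao1. Gde1, encoding a glycerophosphodiesterase that can form anandamide, had group medians of 152 CPM in control females, 141 in obesogenic females, 144 in control males and 145 in obesogenic males, and its difference was -0.17 ± 0.071 (edgeR adjusted p = 0.464), or -0.041 ± 0.043 without the libraries in doubt. Fabp7, a fatty acid binding protein of astrocytes and neural progenitors, had a difference of -0.73 ± 0.33 (edgeR adjusted p = 0.473), with 455 CPM in control female 5 against a median of 44.9 in its group, and 0.046 ± 0.18 without the libraries in doubt. Fabp5, a carrier of anandamide to its hydrolase, had -0.19 ± 0.095 (edgeR adjusted p = 0.495) and kept its sign without them (-0.13 ± 0.061). Gnao1, encoding the alpha subunit of the G protein Go, had 0.093 ± 0.048 (edgeR adjusted p = 0.501) and 0.040 ± 0.045. None passed, and each of the 4 differences was nearer 0 without the libraries in doubt, where Fabp7 also changed sign.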

How the data were processed

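RNA of the hypothalamus was measured in 31 libraries, grouped by dam diet and sex from the labels. Per the file headers, the deposited values are whole counts of pairs for each gene, obtained by running featureCounts 1.6.2 against the Ensembl GRCm38 release 94 annotation (reverse strand, mapping quality of at least 10, both mates aligned), and the table also gives, in another unit, merged exon length in bases. Per the submitters' processing notes, reads were handled with TopHat2 2.0.13, FastQC, Subread and edgeR, and the build was mm10. The authors deposited the counts unnormalized, 0 sample columns were left unused, and 54409 genes had a symbol.

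Here, edgeR 4.0.16 (R 4.3.3) was used with filterByExpr, TMM and robust quasi-likelihood tests, with 1 mean for each group; p-values were adjusted by Benjamini and Hochberg over 18743 genes with a threshold of 0.05. Totals of 23118626 to 38547288 pairs set the precision. CPM are scaled by TMM, refitted where libraries were left out. Covariation used log2 CPM (prior count 2), 100000 permutations within groups (numpy 2.4.6, scipy 1.17.1), and exact permutations within a group; libraries stood apart when over 3 median absolute deviations below the median. Both scripts were tested on simulated data. For diet in females, edgeR called 63.6% of 99 genes changed by 1 log2 and 24.5% of 98 changed by 0.5 log2. A difference of that size can thus be missed. Promoters came from the RefSeq table. Named were the 7 genes, the 4 of the wider list with the smallest p averaged over sexes, and the 3 most alike genes per member, for some members only the first per set; 1 of these genes is not reported here. Alternatives were DESeq2 1.42.0, limma 3.58.1 voom, RLE, other filters, 2 surrogate variables (sva 3.50.0), the 2 groups alone, and left-out libraries. The genes and lists were chosen with earlier results of these data known.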

Additional observations from a re-analysis of the deposited data

Results flagged for a closer look

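6 of 28 tests (7 genes in 4 groups) found a library far from the others of its group by Dixon's criterion, which flags about 1 in 20 groups by chance. All 6 were in control female 5, the library low in hypothalamic markers, or control male 6, which also stood apart. In control female 5, Mgll was highest at 193.7 CPM (next 70.1), Abhd6 was highest at 56.6 CPM (next 38.1), and Cnr1 was lowest at 25.8 CPM (next 75.7). In control male 6, Abhd6 was highest at 42.9 CPM (next 36.6), Dagla was lowest at 16.8 CPM (next 32.6), and Napepld was lowest at 6.75 CPM (next 17.7). Both libraries raised Abhd6, and neither had an outlying value of Daglb or Faah.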

How the results depend on the processing

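0 of the 7 genes passed in any of 574 comparisons with an alternative. 95 log2 differences changed sign, none of them called, and 38 did so by more than 1 SE of the reported value; the cause was not tested. These are, for diet in females, diet averaged over sexes, the interaction and sex in control offspring in turn: with voom, Mgll 0.0021, Cnr1 -0.087 and Napepld -0.036, Mgll -0.082 and Mgll -0.040, and Napepld -0.016 for diet in males. With 2 surrogate variables they were Cnr1 -0.18, Mgll 0.050, Abhd6 0.074 and Napepld -0.22, then Cnr1 -0.10, Abhd6 0.027 and Napepld -0.11, Mgll -0.16, and Mgll -0.12. Without the 5 libraries standing apart they were Mgll 0.029 and Abhd6 0.065, Cnr1 -0.078 and Abhd6 0.030, Mgll -0.13, and Mgll -0.071. Without all 7 in doubt they were Mgll 0.0050 and Abhd6 0.080, Cnr1 -0.081 and Abhd6 0.029, Mgll -0.15, and Mgll -0.10. Leaving out control female 5 alone gave Mgll 0.013 and Abhd6 0.028 for diet in females, Mgll -0.15 for the interaction and Mgll -0.12 for sex in control offspring. Without control male 6 alone these 4 kept their sign, at -0.32, -0.12, 0.22 and 0.25. Leaving out the 2 libraries against their sex label and the 3 standing apart by Pearson's r gave Mgll 0.022 and Abhd6 0.085, Abhd6 0.024, Mgll -0.15 and Abhd6 -0.12, and Mgll -0.11 and Dagla -0.071. The last setting and those without control female 5 or control male 6 alone were chosen after seeing the data.

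Of 21 pairs, 5 were called, and 3 with 2 surrogate variables, 2 without the 7 libraries in doubt, 3 without the 2 libraries with 2 numbers in the title, and 1 without the sex-mismatched libraries and those apart by Pearson's r. The other settings gave 4 to 7, with 6 without control female 5 and 4 without control male 6, and 0 of 231 pair values turned sign past a call. No paired analysis was possible because the labels give no replicate numbers, so the numbers used here only name the libraries. The lowest count of any of the 7 genes in a library was 169 pairs (Napepld in control male 6), so depth limits these levels little.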
